A study of Mus musculus with 15 samples.

Results

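Mouse liver carrying mutant β-catenin in 3 different transgene combinations shared a set of genes that were higher or lower than in liver without it. The models were compared, one at a time, with wild-type liver and with liver carrying the other transgenes without mutant β-catenin, which makes 6 contrasts. A gene was a member when it differed in the same direction in all 6 contrasts, at an adjusted p below 0.05 in each. Of 14098 genes tested, 245 (1.74%) were higher in all 6 contrasts and 44 (0.312%) were lower. All liver came from male FVB/NJ mice and was sequenced as polyA RNA in 5 groups of 3 samples. WT was wild-type liver. CTNNB1_NFE2L2_MET carried S45Y-CTNNB1 (mutant β-catenin), G31A-NFE2L2 (mutant NRF2) and human MET, and CTNNB1_MET, CTNNB1_NFE2L2 and NFE2L2_MET each lacked 1 of these 3. CTNNB1_NFE2L2_MET, CTNNB1_MET and CTNNB1_NFE2L2 are the models (9 samples), and WT and NFE2L2_MET are the references (6 samples). NFE2L2_MET carries the mutant NRF2 and MET without S45Y-CTNNB1, and WT carries no transgene. The labels do not give the promoter, the delivery, the age, the time after delivery or whether the samples come from separate animals, so the p-values here reflect only how far these samples spread, which may be technical.

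β-Catenin is the transcriptional co-activator of the Wnt pathway. In the absence of a Wnt signal it is phosphorylated near its amino terminus and degraded, and the S45 residue is one of the sites that mark it for degradation. Stabilised β-catenin enters the nucleus, binds TCF/LEF factors and raises their target genes, including feedback inhibitors of the pathway itself. In normal liver this activity is highest in hepatocytes around the central vein, where it supports glutamine synthesis and other pericentral functions, and it is low around the portal tract, where the urea cycle prevails.

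Gene counts summed to 14084343 to 20702618 per sample, and unmapped reads made up 8.69 to 25.9% of reads, with the highest shares in WT (19.8 to 25.9%), whose part in the results was not tested. Levels are given as CPM (counts scaled to a common library total with TMM factors), and differences as log2 fold change ± standard error. Mouse Ctnnb1 ran from 309.6 to 454 CPM in the 9 samples and from 243 to 355 in the 6, which overlap, and its pooled difference was 0.35 ± 0.074 (the mean of the 3 models minus the mean of both references, edgeR quasi-likelihood test, adjusted p = 0.00142). The labels do not say from which species the introduced CTNNB1 comes, so this level does not check the labels. Hepatocyte markers were present in every group, and 0 of the 10 tested were members. Their median pooled difference was -0.79 (9 lower and 0 higher), where 21.9% of all tested genes were lower. The models were not alike. In CTNNB1_MET 4 were higher and 0 lower against WT, and 0 higher and 2 lower against NFE2L2_MET. In CTNNB1_NFE2L2_MET 5 were lower against WT and 7 against NFE2L2_MET, and in CTNNB1_NFE2L2 9 against each. Over all tested genes, 6.22% and 7.36% were lower in CTNNB1_MET, 23.4% and 14.3% in CTNNB1_NFE2L2_MET and 24.2% and 18.9% in CTNNB1_NFE2L2. In CTNNB1_MET 1552 and 981 of the 14098 tested genes were higher. In whole liver, fewer cells of a type and less RNA per cell cannot be told apart.

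Against WT, 1052 genes were higher and 552 lower in all 3 models, and against NFE2L2_MET the counts were 399 and 251. Both references were passed by 245 of the higher and 44 of the lower genes. Only 7 genes were higher than WT and lower than NFE2L2_MET in all 3 models, and 0 showed the reverse. They were B4galnt1, Tff3, Cd14, Smpdl3b, BC048546, Erich4 and Smpd3. Tff3, a secreted mucosal peptide, had mean levels of 0.334 CPM in WT and 72.6 in NFE2L2_MET, with 1.44 to 2.29 in the models. Contrasts of CTNNB1_MET were the ones most often missed. A further 257 genes were higher in 5 contrasts and missed CTNNB1_MET against NFE2L2_MET, and 41 missed CTNNB1_MET against WT. The 4 other contrasts were each missed alone by 3 to 33 such genes. Among lower genes, 140 missed CTNNB1_MET against NFE2L2_MET and 52 missed CTNNB1_MET against WT, while the other 4 contrasts were each missed by 1 to 7. Over all tested genes CTNNB1_MET also had the fewest calls, with 981 higher and 1037 lower against NFE2L2_MET and 1552 and 877 against WT. The other 4 contrasts had 2314 to 3739 higher and 2011 to 3411 lower. How far the number of calls accounts for the misses was not tested. The last higher gene inside the threshold was Gstm6, a glutathione transferase with near-identical copies (largest adjusted p 0.0495), and the first outside was Cnot11 (0.0507). Among lower genes these were Calcr (0.0497) and Etnk1 (0.0513).

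**Figure D1:**
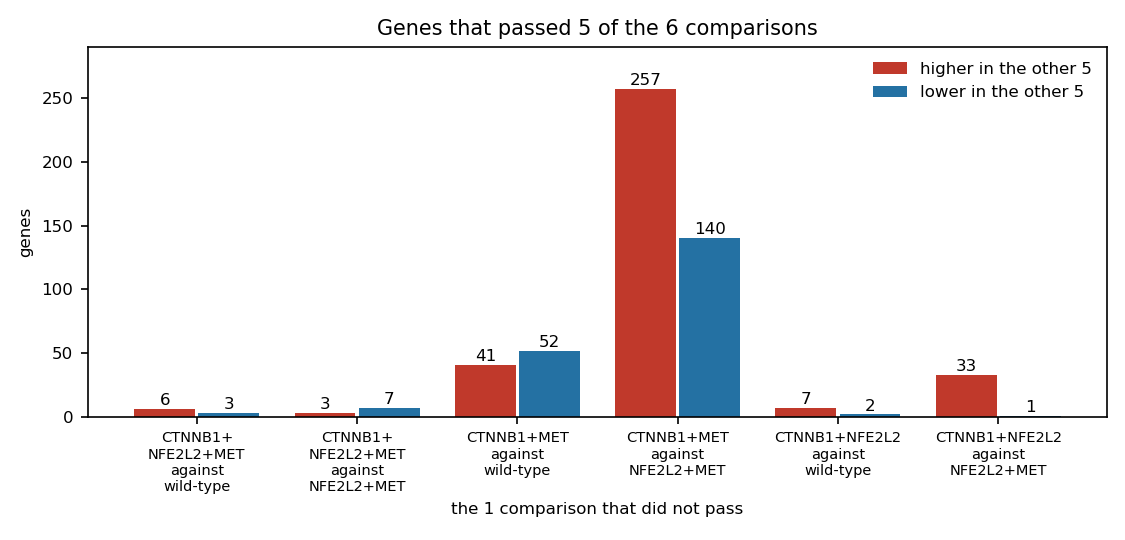
Number of genes (y axis) that passed in 5 of the 6 contrasts in one direction, by the single contrast they missed (x axis), with separate bars for higher and lower genes. The bars for CTNNB1_MET against NFE2L2_MET stand highest, at 257 higher and 140 lower genes. The CTNNB1_MET contrasts also had the fewest calls over all tested genes.

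The values in these 6 contrasts chose the members and are given here as a description. Median log2 differences of the 245 higher genes were 2.83 and 2.53 in CTNNB1_NFE2L2_MET (against WT and NFE2L2_MET), 1.84 and 1.43 in CTNNB1_MET and 2.65 and 2.30 in CTNNB1_NFE2L2. For the 44 lower genes they were -1.07 and -1.22, -0.89 and -0.87, and -1.19 and -1.28. The 3 contrasts with 1 reference share its samples. In 236 of the 245 higher genes (96.3%) and 39 of the 44 lower genes (88.6%) no sample of the 9 overlapped the 6. Across all tested genes this held for 4.54%. In all 6 contrasts 158 higher genes differed at least 2-fold and 47 at least 4-fold, against 10 and 0 lower genes. The median of each gene's smallest difference was 1.24 for higher and 0.71 for lower genes. Genes described below beyond the naming rule were chosen after their values were seen.

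Textbook Wnt targets made up 12 of the higher genes, of 29 tested (41.4%), and 1 of the lower genes. The 12 were Apcdd1, Lef1, Nkd1, Tnfrsf19, Lgr5, Sp5, Tcf7, Ccnd1, Tbx3, Notum, Axin2 and Rnf43. Among them are secreted or membrane inhibitors of the pathway (Apcdd1, Notum, Rnf43), intracellular inhibitors (Nkd1, Axin2), TCF/LEF factors themselves (Lef1, Tcf7) and the R-spondin receptor Lgr5. Axin2 stood at 9.49, 6.05 and 11.4 CPM in the 3 WT samples and 4.95, 5.19 and 2.35 in NFE2L2_MET, against 50.9, 47.2 and 40.9 in CTNNB1_NFE2L2_MET, 18.1, 15.7 and 16.4 in CTNNB1_MET and 31.2, 26.0 and 31.2 in CTNNB1_NFE2L2. Every model sample was above every reference sample, and the gap was smallest for CTNNB1_MET over WT (0.90 ± 0.23). Without WT replicate 2 or CTNNB1_MET replicate 1, Axin2 lost membership. Lgr5 ranged from 9.14 to 27.1 CPM (median 17.8) in the 9 samples with mutant β-catenin and from 1.26 to 3.21 (median 2.22) in the 6 without, with differences of 1.99 to 3.65. Nkd1 and Apcdd1 varied most between models, at -2.47 and -2.18 for CTNNB1_MET minus CTNNB1_NFE2L2 (adjusted p = 3.24e-07 and 1.13e-04). Rnf43 lay at 24.6 to 66.0 CPM (median 51.5) against 9.68 to 25.4 (median 14.8), which overlap, and it lost membership without WT replicate 2, WT replicate 3 or CTNNB1_NFE2L2 replicate 1. The noncoding gene 1110028F11Rik, also a member, lies inside Rnf43 on the same strand. Sp5, Axin2, Nkd1, Notum and Tcf7 were lower in NFE2L2_MET than in WT (-2.06, -1.11, -1.12, -0.83 and -0.81 on the log2 scale, each at an adjusted p below 0.05), a contrast the selection did not use. Other Wnt genes fell short: Znrf3, partner of Rnf43, missed only CTNNB1_MET against WT, and Bmp4 and Rspo3 were lower in 5 contrasts and missed CTNNB1_MET against NFE2L2_MET. Dkk4 was lower in 4 contrasts and missed those of CTNNB1_MET, and Dkk3 was lower than WT in all 3 models. In the pooled contrast 14 of the 29 genes were higher and 7 lower, where 23.0% of all tested genes were higher and 21.9% lower.

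Cell-cycle genes were the largest named class, with 84 of 273 tested (30.8%) higher in all 6 contrasts and 0 lower. They included the mitotic cyclins Ccnb1, Ccnb2 and Ccna2, the kinases Plk1, Aurka and Cdk1, kinesins such as Kif14 and Kif20a, and Mki67, the proliferation marker. Mki67 stood at 3.81, 3.08 and 2.76 CPM in the 3 WT samples and 6.78, 5.32 and 8.36 in NFE2L2_MET, against 63.9, 91.1 and 67.9 in CTNNB1_NFE2L2_MET, 25.3, 19.3 and 32.2 in CTNNB1_MET and 54.1, 56.3 and 42.6 in CTNNB1_NFE2L2. The 9 samples lay above the 6, with the CTNNB1_MET samples nearest to them. Cdkn3, a phosphatase that acts on cyclin-dependent kinases, had the largest minimum difference of the class, and its differences ran from 3.37 ± 0.33 (CTNNB1_MET against NFE2L2_MET) to 4.94 ± 0.35 (CTNNB1_NFE2L2_MET against WT). In the pooled contrast 236 of the 273 genes were higher and 5 lower, where 23.0% of all tested genes were higher and 21.9% lower.

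The remaining 149 higher genes were neither Wnt targets nor cell-cycle genes on the lists used (1.08% of the 13796 tested), although some of them (Traip, Prr11, Mxd3, Arhgef39) are known from dividing cells. Glul, the glutamine synthetase that fixes ammonia around the central vein, stood at 594, 594 and 512 CPM in the 3 WT samples and 345, 334 and 261 in NFE2L2_MET, against 3046, 2985 and 2519 in CTNNB1_NFE2L2_MET, 1984, 1848 and 1575 in CTNNB1_MET and 3779, 4216 and 3768 in CTNNB1_NFE2L2. All model samples lay above all references, and the log2 differences ran from 1.67 ± 0.15 (CTNNB1_MET against WT) to 3.65 ± 0.16 (CTNNB1_NFE2L2 against NFE2L2_MET). Rhbg, an ammonium transporter, stood at 9.06, 4.98 and 8.47 CPM in the 3 WT samples and 7.84, 7.12 and 6.70 in NFE2L2_MET, against 129, 146 and 137 in CTNNB1_NFE2L2_MET, 106.5, 78.7 and 76.7 in CTNNB1_MET and 102, 67.0 and 68.5 in CTNNB1_NFE2L2. Its values did not overlap and NFE2L2_MET minus WT was -0.05 ± 0.23 (adjusted p = 0.905). Slc1a2, a glutamate transporter, stood at 116.8, 111.2 and 135 CPM in the 3 WT samples and 84.2, 60.8 and 63.4 in NFE2L2_MET, against 359, 334 and 389.6 in CTNNB1_NFE2L2_MET, 518, 472 and 296 in CTNNB1_MET and 948, 1115 and 875 in CTNNB1_NFE2L2. CTNNB1_NFE2L2 stood above the other models, and its difference from NFE2L2_MET was 3.82 ± 0.21. Slc1a5, a neutral amino acid transporter that carries glutamine, had 9.14 to 31.7 CPM (median 24.1) against 2.37 to 4.86 (median 3.25), with differences of 1.45 to 3.23.

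On the pericentral list 9 of 25 genes were members and 3 more were higher in 5 contrasts. Slc13a3, a dicarboxylate transporter, ranged from 58.3 to 132 CPM (median 101.1) in the 9 samples with mutant β-catenin and from 11.1 to 27.3 (median 16.2) in the 6 without. Lect2, a secreted protein, had means of 85.8 ± 5.70 CPM in WT, 45.8 ± 13.9 in NFE2L2_MET, 453 ± 66.6 in CTNNB1_NFE2L2_MET, 530.1 ± 105.2 in CTNNB1_MET and 234 ± 18.02 in CTNNB1_NFE2L2 (mean ± SD, n = 3). CTNNB1_NFE2L2 was the lowest model, with CTNNB1_MET higher by 1.18 ± 0.19 (adjusted p = 1.79e-04). Gulo, which makes vitamin C in its last step, ranged from 964 to 1294 CPM (median 1224) in the 9 samples with mutant β-catenin and from 241 to 539.7 (median 395) in the 6 without. No difference between models passed for Gulo, the largest being -0.13 ± 0.17. Lhpp, a phosphatase that acts on histidine and lysine, had 112 to 188 CPM (median 125) against 13.9 to 58.9 (median 36.8), and the difference of NFE2L2_MET from WT was -1.39 ± 0.17 (adjusted p = 2.64e-05). Lhpp overlaps Fgfr2 on the opposite strand, and the counts do not use strand. The list members Cyp2e1, Cyp1a2, Cyp2a5 and Oat were not in the signature. Ahr and Cldn2 were higher in 5 contrasts and missed CTNNB1_MET against WT, while Slc1a4 was higher in 5 and lower in CTNNB1_MET against NFE2L2_MET (-1.05, adjusted p = 0.0122). In the pooled contrast 19 of the 25 genes were higher and 2 lower, with a median of 1.53 against 0.00 for all genes. Against WT, 15 were higher and 5 lower in CTNNB1_NFE2L2_MET, 13 and 0 in CTNNB1_MET and 18 and 5 in CTNNB1_NFE2L2. Of all 14098 tested genes, 3739 were higher and 3300 lower, 1552 and 877, and 3456 and 3411 in these contrasts. Against NFE2L2_MET the list counts were 17 and 1, 17 and 3, and 21 and 1. Those of all tested genes were 2314 and 2011, 981 and 1037, and 2579 and 2660.

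**Figure D2:**
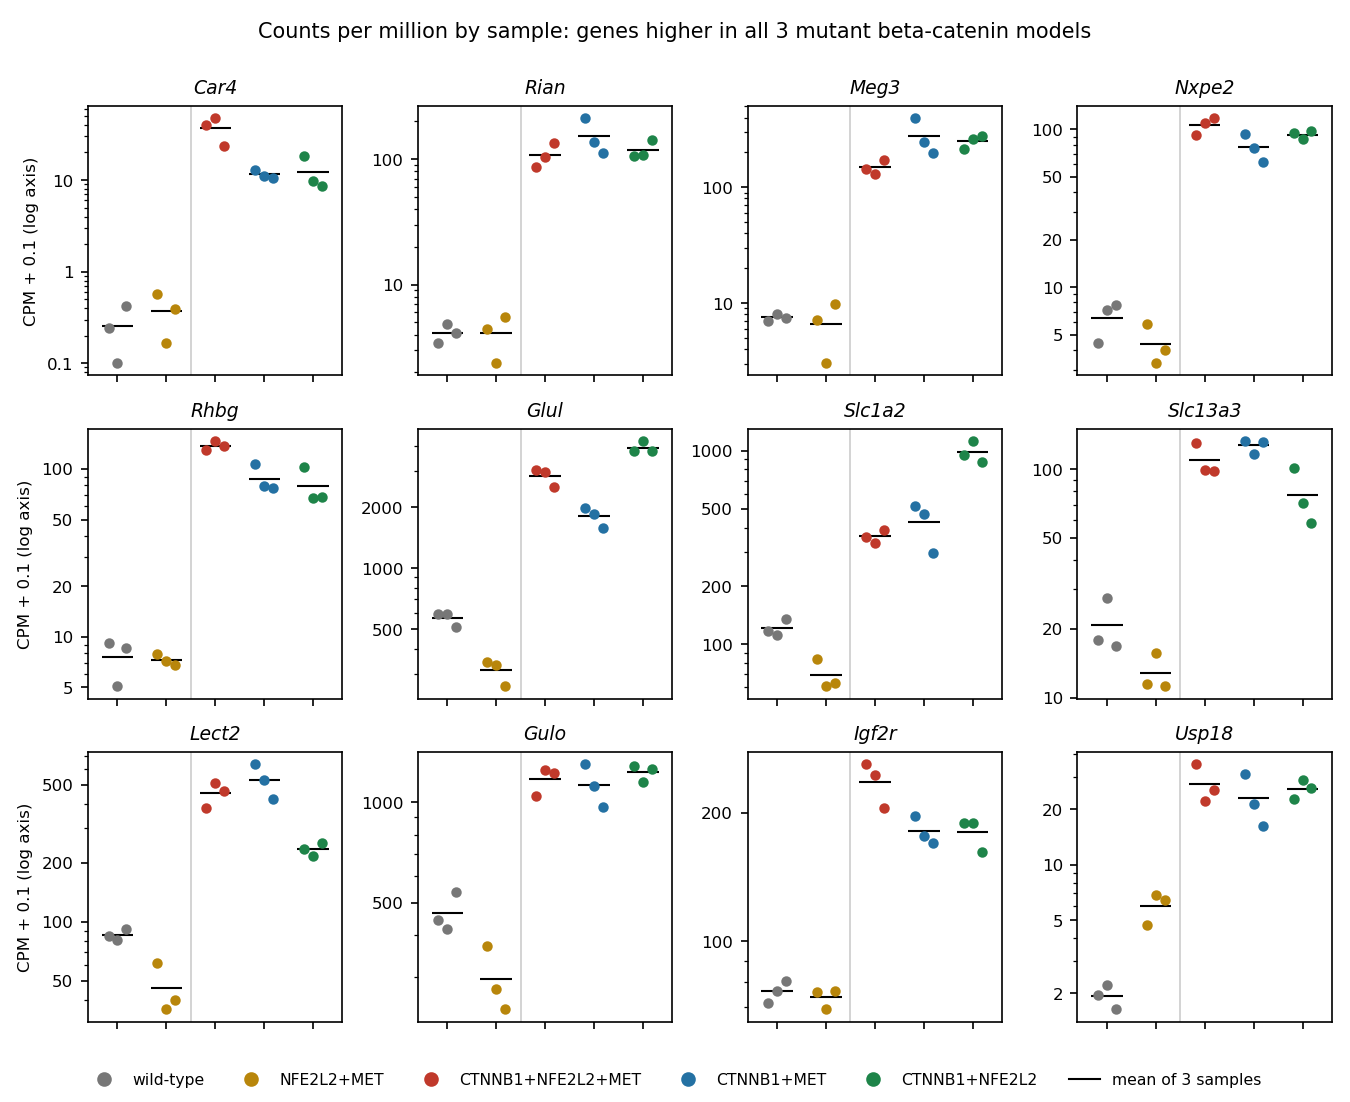
CPM plus 0.1 on a log axis for 12 higher genes in each of the 15 samples, by group, with a black bar at the mean of 3 samples. The 9 samples with mutant β-catenin lie above the 6 without in all 12 panels.

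Sequences of the 250 bases before the transcript start used in the promoter table (RefSeq, GRCm38.p6) are shown for 1 Wnt target and 3 genes of other roles whose promoters hold the TCF/LEF letters, so that the match can be read in place. The letters searched were CTTTGAT and CTTTGAA on both strands (ATCAAAG and TTCAAAG on the other), within 300 bases from 250 before to 50 after the start. Capitals mark the match.
Sp5: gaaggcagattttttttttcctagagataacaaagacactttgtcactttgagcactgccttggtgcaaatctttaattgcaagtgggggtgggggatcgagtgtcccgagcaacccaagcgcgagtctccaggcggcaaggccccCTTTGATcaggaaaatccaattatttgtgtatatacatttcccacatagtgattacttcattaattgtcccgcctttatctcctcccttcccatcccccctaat
Slc1a2: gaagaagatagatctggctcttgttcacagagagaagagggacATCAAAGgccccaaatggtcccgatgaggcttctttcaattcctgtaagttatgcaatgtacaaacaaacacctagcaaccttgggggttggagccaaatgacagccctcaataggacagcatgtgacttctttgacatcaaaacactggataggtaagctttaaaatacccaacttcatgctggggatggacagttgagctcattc
Lect2: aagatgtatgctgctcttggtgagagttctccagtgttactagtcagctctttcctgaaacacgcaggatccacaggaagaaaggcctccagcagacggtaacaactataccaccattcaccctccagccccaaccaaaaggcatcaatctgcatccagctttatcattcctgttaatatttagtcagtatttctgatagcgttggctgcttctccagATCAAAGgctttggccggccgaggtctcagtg
Slc3a1: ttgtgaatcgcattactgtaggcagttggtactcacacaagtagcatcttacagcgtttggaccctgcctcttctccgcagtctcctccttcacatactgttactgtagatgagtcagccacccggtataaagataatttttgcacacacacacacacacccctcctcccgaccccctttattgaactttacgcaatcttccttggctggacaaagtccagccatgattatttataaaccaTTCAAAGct
The stretches lie at chr2:70474673-70474922 on the plus strand for Sp5, chr2:102706188-102706437 on the plus strand for Slc1a2, chr13:56548539-56548788 on the minus strand for Lect2 and chr17:85028097-85028346 on the plus strand for Slc3a1, the last of which is a lower gene. The matches start 104, 207, 32 and 9 bases before that transcript start. For Slc1a2 this start lies inside the annotated gene (chr2:102658239-102790784), far from its left end, and for Lect2 it lies just inside the gene (chr13:56529734-56548559). In all, 20 of 224 promoters of higher genes held the letters (8.93%), 4 of 42 of lower genes (9.52%) and 882 of 14267 of all tested genes (6.18%), and in the whole RefSeq table the share was 8.65%. Among higher genes that were neither Wnt targets nor cell-cycle genes, 8 of 132 held them (6.06%), near that of all tested genes. For higher cell-cycle genes it was 10 of 79 (12.7%) and for higher Wnt targets 2 of 13 (15.4%), and differences between shares were not tested. The 224 promoters belonged to 179 of the 245 higher genes. A match is a description of these letters in this window.

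Imprinted regions on chromosomes 12 and 17 held several higher members each. In the Dlk1 to Dio3 region of chromosome 12 (chr12:109540996-109749458) the members were Meg3, Rtl1, Rian, AF357359 and Mirg. Meg3, Rian and Mirg are noncoding RNAs expressed from the maternal copy, Rtl1 is expressed from the paternal copy and AF357359 is a small nucleolar RNA gene inside Rian. Meg3 stood at 6.97, 7.95 and 7.38 CPM in the 3 WT samples and 7.01, 2.93 and 9.74 in NFE2L2_MET, against 142, 131 and 173 in CTNNB1_NFE2L2_MET, 394, 248 and 196 in CTNNB1_MET and 215, 259 and 279 in CTNNB1_NFE2L2. The models stood at least 131 CPM, and the references at most 9.74, and the differences ran from 4.32 ± 0.36 (CTNNB1_NFE2L2_MET against WT) to 5.40 ± 0.37 (CTNNB1_MET against NFE2L2_MET). Rian ranged from 85.8 to 211 CPM (median 111.1) in the 9 samples with mutant β-catenin and from 2.26 to 5.38 (median 4.14) in the 6 without. Mirg was at 3.65 to 9.81 CPM (median 5.002) against 0 to 0.344 (median 0.155). The pooled differences of the 5 genes lay between 4.72 and 5.06, and no model difference passed for Rian, Mirg, AF357359 or Rtl1, while Meg3 was lower in CTNNB1_NFE2L2_MET than in CTNNB1_MET (-0.91 ± 0.30, adjusted p = 0.0329). Rtl1 rests on few counts, with 30 to 34 per model, 3 in NFE2L2_MET and 0 in WT, and it lost membership without NFE2L2_MET replicate 1 or 2. Dlk1, the paternally expressed gene at the other end, was not a member: its mean was 59.6 CPM in CTNNB1_MET and 0.319 to 3.30 in the other models. The annotated spans of Meg3, Rtl1 and Rian overlap, and strand was not used.

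Slc22a3, Igf2r and Airn lie in the other imprinted region, on chromosome 17 (chr17:12419972-12859884). Igf2r binds insulin-like growth factor 2 and mannose 6-phosphate, Slc22a3 transports organic cations, and Airn is the noncoding antisense RNA of Igf2r. Igf2r stood at 71.5, 76.5 and 80.6 CPM in the 3 WT samples and 75.9, 69.1 and 76.2 in NFE2L2_MET, against 259.9, 245 and 206 in CTNNB1_NFE2L2_MET, 197, 176 and 169.9 in CTNNB1_MET and 189.5, 189 and 162 in CTNNB1_NFE2L2. The models and references did not overlap and the 6 differences ran only from 1.24 to 1.68. Slc22a3 stood at 1.84 ± 0.259 CPM in WT, 0.949 ± 0.257 in NFE2L2_MET, 6.76 ± 1.69 in CTNNB1_NFE2L2_MET, 4.09 ± 0.5999 in CTNNB1_MET and 35.1 ± 4.29 in CTNNB1_NFE2L2 (mean ± SD, n = 3), and CTNNB1_NFE2L2 was above CTNNB1_MET by 3.10 on the log2 scale (adjusted p = 2.14e-08). Slc22a3 overlaps Plg, a liver-secreted protein gene, on the opposite strand, and the pooled difference of Plg was -0.81. Airn overlaps one end of Igf2r on the opposite strand, where unstranded reads cannot be assigned to either gene, and Airn had means of 0.412 ± 0.247 CPM in WT, 0.377 ± 0.219 in NFE2L2_MET, 4.42 ± 1.27 in CTNNB1_NFE2L2_MET, 1.94 ± 0.0838 in CTNNB1_MET and 1.55 ± 0.414 in CTNNB1_NFE2L2 (mean ± SD, n = 3). Of the other tested genes there, Mas1 missed the signature through CTNNB1_MET against NFE2L2_MET (-0.32), and Slc22a2 passed none (pooled adjusted p = 0.0578). On the wider list of 11 other imprinted genes, 1 was a member.

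**Figure D3:**
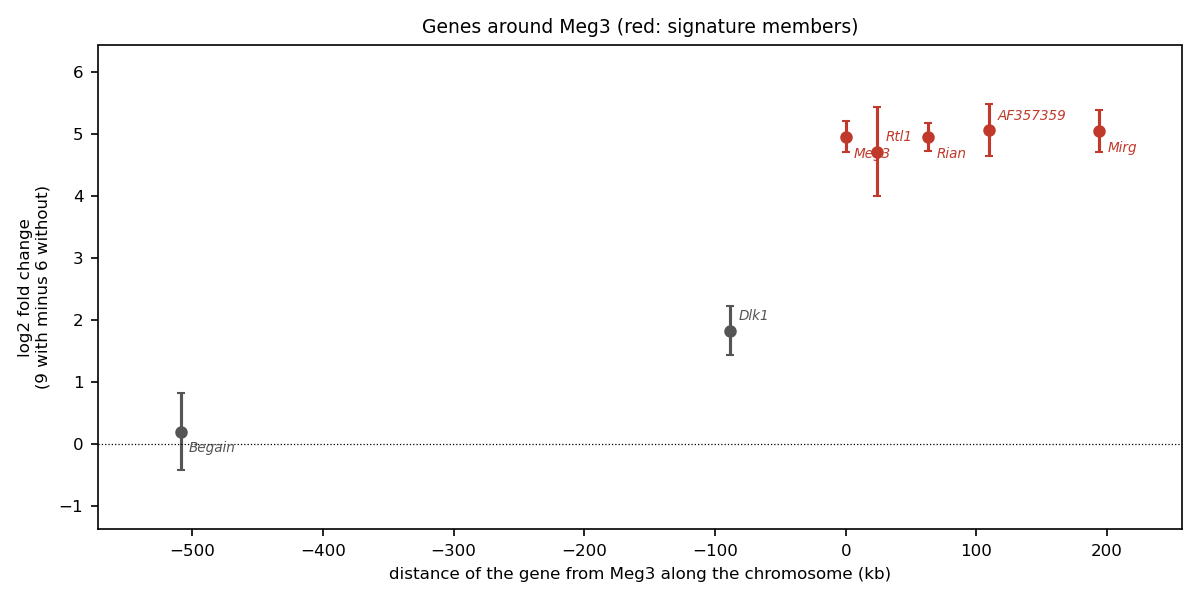
Pooled log2 difference ± standard error (y axis) of tested genes in the region of Meg3, against the distance in kb between gene left ends (x axis). Members are red: Meg3, Rtl1, Rian, AF357359 and Mirg lie between 4.72 and 5.06.

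Neighbouring members were found elsewhere as well. Counting the imprinted regions above, 19 runs of members within 250 kb of each other held 44 of the 245 higher genes. Outside those regions the runs included Teddm1a and Glul, Slc16a11 and Slc16a13, Gbp10 and Gbp6, and Tuba8 and Usp18. How many runs an equal number of tested genes would form was not tested. Slc16a11 and Slc16a13, of the monocarboxylate transporter family, lay at 18.4 to 55.3 CPM (median 31.04) against 5.20 to 12.5 (median 7.40) and 3.40 to 14.7 CPM (median 9.78) against 1.01 to 2.09 (median 1.34). Across all members, 38 overlapped a tested gene on the opposite strand and 3 one on the same strand, of 281 found in the annotation.

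The next higher genes are described singly, with no count over a list. Car4, a membrane-bound carbonic anhydrase, stood at 0.144, 0 and 0.321 CPM in the 3 WT samples and 0.471, 0.0665 and 0.286 in NFE2L2_MET, against 40.0, 47.2 and 23.6 in CTNNB1_NFE2L2_MET, 12.9, 10.9 and 10.4 in CTNNB1_MET and 18.2, 9.62 and 8.56 in CTNNB1_NFE2L2. No reference sample exceeded 0.471 CPM and no model sample was below 8.56, with differences from 5.30 ± 0.53 (CTNNB1_MET against NFE2L2_MET) to 7.87 ± 0.57 (CTNNB1_NFE2L2_MET against WT). Car2, a cytosolic carbonic anhydrase, had means of 4.01 ± 2.38 CPM in WT, 7.44 ± 1.26 in NFE2L2_MET, 68.8 ± 16.9 in CTNNB1_NFE2L2_MET, 17.6 ± 4.33 in CTNNB1_MET and 104 ± 13.5 in CTNNB1_NFE2L2 (mean ± SD, n = 3). It lost membership without CTNNB1_MET replicate 1 or NFE2L2_MET replicate 2. Mogat2, which makes diacylglycerol, ranged over 3.34 to 46.8 CPM (median 11.7) against 0.0593 to 1.09 (median 0.684), and lay highest in CTNNB1_NFE2L2 (above CTNNB1_MET by 2.94, adjusted p = 2.99e-07). Lpl, which releases fatty acids from lipoproteins, had 79.8 to 247 CPM (median 149) against 9.31 to 60.3 (median 24.5) and lost membership without CTNNB1_MET replicate 1 or 3 or NFE2L2_MET replicate 1 or 2. Vldlr, a lipoprotein receptor, had 16.7 to 55.7 CPM (median 31.4) against 6.25 to 11.9 (median 9.25). Pck2, mitochondrial phosphoenolpyruvate carboxykinase, had 11.9 to 31.6 CPM (median 15.1) against 4.36 to 8.76 (median 6.68) and its smallest difference was 0.79 ± 0.20. Rdh9, a retinol dehydrogenase of a multigene family, had 329 to 833 CPM (median 580.3) against 67.6 to 159.9 (median 121.9) and was lower in CTNNB1_NFE2L2_MET than in CTNNB1_MET (by 0.77, adjusted p = 0.0154). Akr1b7, Cyp2c55 and Sult2a6 also belong to families with near-identical copies, so their values are uncertain. Differences were 3.77 to 7.17 for Akr1b7 and 2.53 to 5.35 for Cyp2c55. Sult2a6 had 0 counts in WT and 6 in NFE2L2_MET, and with WT set to 3 counts over its group it was at least 25.1-, 127- and 94.9-fold higher in CTNNB1_NFE2L2_MET, CTNNB1_MET and CTNNB1_NFE2L2.

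Some higher genes were close to absent in the references. Under a rule of less than 0.5 CPM in all 6 references and at least 2 CPM in all 9 models, 4 genes were gained: Car4, AF357359, Mirg and Apcdd1. Without the second condition there were 34. AF357359 lies within the span of Rian, itself a member, and whether its reads are separate from those of Rian was not tested. Mir670 and 4930425O10Rik had 0 counts in both references. Mir670 is annotated as a microRNA gene, and whether its counts in polyA RNA come from the microRNA was not tested. Mir670 totalled 41 counts in CTNNB1_NFE2L2_MET, 43 in CTNNB1_MET and 48 in CTNNB1_NFE2L2, at least 10.4-, 13.4- and 12.8-fold higher than WT when WT is set to 3 counts over its group. For 4930425O10Rik (89, 23 and 41 counts) the bounds against NFE2L2_MET were 24.1, 7.65 and 11.7, and it lost membership without CTNNB1_MET replicate 1. In 53 higher members each reference group held under 30 counts, so their folds depend on few reads. Among other higher genes, Nxpe2 ranged from 61.8 to 117.6 CPM (median 93.4) in the 9 samples with mutant β-catenin and from 3.19 to 7.57 (median 5.04) in the 6 without. No model difference passed for Nxpe2, and its values ran from 3.60 to 4.63. Tuba8, an α-tubulin, had 5.64 to 28.0 CPM (median 12.6) against 0.216 to 0.884 (median 0.367). Adcy8, an adenylate cyclase, had 0.209 to 3.55 CPM (median 0.567) against 0 to 0.0641 (median 0). Pcp4l1 had 23.5 to 81.8 CPM (median 43.8) against 3.79 to 9.64 (median 6.74), and B930041F14Rik (Fndc10 in RefSeq) had 5.46 to 17.5 CPM (median 6.80) against 0.266 to 1.24 (median 0.962). Atp10a, a lipid flippase, had means of 2.17 ± 0.802 CPM in WT, 1.27 ± 0.456 in NFE2L2_MET, 22.2 ± 3.86 in CTNNB1_NFE2L2_MET, 12.3 ± 3.73 in CTNNB1_MET and 7.99 ± 1.46 in CTNNB1_NFE2L2 (mean ± SD, n = 3).

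A few members are known from immune responses or as surface proteins. Usp18, which removes the ubiquitin-like ISG15 from proteins, stood at 1.87, 2.14 and 1.54 CPM in the 3 WT samples and 4.60, 6.79 and 6.30 in NFE2L2_MET, against 35.0, 22.0 and 25.2 in CTNNB1_NFE2L2_MET, 31.1, 21.4 and 16.2 in CTNNB1_MET and 22.6, 28.7 and 25.9 in CTNNB1_NFE2L2. NFE2L2_MET lay above WT by 1.66 ± 0.29 (adjusted p = 0.00109), and all models lay above both. Usp18 was the only one of 23 interferon-response genes in the signature. In the pooled contrast 18 of these were higher and 1 lower, where 23.0% of all tested genes were higher. Against WT 21 were higher in CTNNB1_NFE2L2_MET, 14 in CTNNB1_MET and 19 in CTNNB1_NFE2L2. Of all 14098 tested genes 3739, 1552 and 3456 were higher in these contrasts. Against NFE2L2_MET 13 of the interferon-response genes were higher and 1 lower in CTNNB1_NFE2L2_MET, 3 and 2 in CTNNB1_MET, and 9 and 3 in CTNNB1_NFE2L2. Over all tested genes these numbers were 2314 and 2011, 981 and 1037, and 2579 and 2660. Cd79b, part of the B cell receptor, had 0.919 to 1.85 CPM (median 1.20) against 0.257 to 0.575 (median 0.462), and lost membership without WT replicate 3, CTNNB1_MET replicate 2 or NFE2L2_MET replicate 1. The 6 B and plasma cell markers tested summed to 2.05 to 3.80 CPM in WT, 8.48 to 11.7 in NFE2L2_MET, 6.35 to 16.8 in CTNNB1_NFE2L2_MET, 9.64 to 18.9 in CTNNB1_MET and 3.67 to 4.11 in CTNNB1_NFE2L2, and none was at 0 in all samples of a group. Whether they contribute to Cd79b was not tested. Prom1, the membrane protein CD133, had means of 0.582 ± 0.00986 CPM in WT, 2.89 ± 1.29 in NFE2L2_MET, 41.8 ± 2.08 in CTNNB1_NFE2L2_MET, 51.9 ± 1.43 in CTNNB1_MET and 5.25 ± 1.99 in CTNNB1_NFE2L2 (mean ± SD, n = 3). It lost membership without CTNNB1_NFE2L2 replicate 1 or NFE2L2_MET replicate 2. The 9 cholangiocyte and progenitor markers, with Prom1 and the lower gene Sox9 among the listed genes, summed to 72.9 to 167 CPM in WT, 194 to 289 in NFE2L2_MET, 132 to 178 in CTNNB1_NFE2L2_MET, 122.4 to 128.5 in CTNNB1_MET and 52.9 to 79.0 in CTNNB1_NFE2L2. None was at 0 in all samples of a group, and their part in the value of Prom1 or Sox9 was not tested. Nt5e, the ectonucleotidase CD73, had 27.3 to 120.3 CPM (median 52.1) against 4.21 to 22.1 (median 11.1). Ly6d had 1.01 ± 0.520 CPM in WT, 47.9 ± 7.21 in NFE2L2_MET, 303 ± 77.3 in CTNNB1_NFE2L2_MET, 136 ± 60.5 in CTNNB1_MET and 168 ± 40.4 in CTNNB1_NFE2L2 (mean ± SD, n = 3), with NFE2L2_MET far above WT.

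Bax, a promoter of apoptosis, had 36.5 to 49.9 CPM (median 42.6) against 24.5 to 34.2 (median 30.2) and differences of 0.43 to 0.64. Emp2, a membrane protein, had 40.9 to 56.4 CPM (median 45.2) against 8.40 to 20.6 (median 15.2), differences of 1.37 to 2.04, and no model difference that passed. Ikbkb, a kinase of the NF-κB pathway, and H3f3b, a histone H3 gene, had differences of 0.30 to 0.52 and 0.24 to 0.33, the latter kept in 3 of 15 fits that left out 1 sample. The smallest minimum among all higher genes was 0.24. Adh1, the alcohol dehydrogenase of hepatocytes, had 1930.5 to 2559.9 CPM (median 2286) against 924 to 1770.0 (median 1373) and was kept in 4 of 15.

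None of the 44 lower genes was a cell-cycle gene. Their count depended on single samples: without CTNNB1_MET replicate 1 it was 21, without CTNNB1_MET replicate 2 it was 28 and without NFE2L2_MET replicate 1 it was 29. Of the 44, 14 were kept in all 15 fits that left out 1 sample, against 142 of the 245 higher genes. No gene was lost in the sense of at least 2 CPM in all references and under 0.5 CPM in all models. Aspg, an asparaginase, was kept in all 15. Aspg stood at 283, 221 and 211 CPM in the 3 WT samples and 236, 239 and 239 in NFE2L2_MET, against 20.3, 33.2 and 47.5 in CTNNB1_NFE2L2_MET, 74.7, 95.2 and 96.6 in CTNNB1_MET and 50.1, 39.3 and 47.0 in CTNNB1_NFE2L2. The references did not overlap the models, and the differences ran from -1.42 ± 0.23 (CTNNB1_MET against NFE2L2_MET) to -2.82 ± 0.24 (CTNNB1_NFE2L2_MET against WT). Slco2a1, a prostaglandin transporter, stood at 80.6, 104 and 113 CPM in the 3 WT samples and 114, 100.2 and 145 in NFE2L2_MET, against 33.9, 28.7 and 22.9 in CTNNB1_NFE2L2_MET, 28.4, 41.7 and 53.7 in CTNNB1_MET and 49.0, 37.6 and 41.7 in CTNNB1_NFE2L2. No difference between models passed for Slco2a1, and it too was kept in all 15. Col27a1, a fibrillar collagen, had 7.32 to 36.2 CPM (median 18.4) against 48.0 to 89.8 (median 75.1), with the lowest values in CTNNB1_NFE2L2 (1.41 ± 0.30 for CTNNB1_MET minus CTNNB1_NFE2L2, adjusted p = 0.00250). Slc3a1, the heavy subunit of a cystine and dibasic amino acid transporter, had 5.24 to 20.3 CPM (median 10.9) against 21.5 to 79.8 (median 42.4), but it was kept in only 3 of the 15 fits, those without WT replicate 1, CTNNB1_NFE2L2_MET replicate 2 or NFE2L2_MET replicate 3. Its neighbour Prepl, which overlaps it on the opposite strand, was lower too.

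Of 13 tested genes of the urea cycle and ammonia list, 1 was a lower member and 2 (Rhbg and Glul) were higher members. Arg1, the last enzyme of the urea cycle, stood at 2027, 1467 and 1948 CPM in the 3 WT samples and 2285, 2650.2 and 2391 in NFE2L2_MET, against 417, 381 and 519.5 in CTNNB1_NFE2L2_MET, 829.9, 1118 and 997 in CTNNB1_MET and 299, 257 and 488 in CTNNB1_NFE2L2. CTNNB1_MET stayed nearest the references (-0.89 ± 0.22 against WT), and without CTNNB1_MET replicate 1 the membership was lost. Gldc, of the glycine cleavage system, had means of 150.1 ± 65.9 CPM in WT, 416 ± 110.4 in NFE2L2_MET, 83.2 ± 12.2 in CTNNB1_NFE2L2_MET, 73.5 ± 21.0 in CTNNB1_MET and 63.6 ± 9.31 in CTNNB1_NFE2L2 (mean ± SD, n = 3). The references differed (1.47 ± 0.30, adjusted p = 0.00397), samples overlapped and membership was lost without WT replicate 3, CTNNB1_NFE2L2_MET replicate 2 or 3, or CTNNB1_MET replicate 1 or 3. Aldh1l1, 10-formyltetrahydrofolate dehydrogenase, had 579 to 916 CPM (median 678) against 962 to 1509 (median 1377), and was lost without WT replicate 1 or CTNNB1_MET replicate 1 or 2. Sfxn1, a mitochondrial serine transporter, had 39.4 to 76.0 CPM (median 49.0) against 90.7 to 155 (median 120.03) and was lost without CTNNB1_MET replicate 1. Acly, ATP citrate lyase, had 55.5 to 138 CPM (median 91.8) against 165 to 237 (median 211) and was the only member of 29 fatty acid and cholesterol synthesis genes. Cyp2j5, an arachidonic acid epoxygenase of a multigene family, had 96.1 to 394 CPM (median 237) against 551 to 811 (median 659), and was lost without CTNNB1_MET replicate 1 or 2 or any NFE2L2_MET sample. Hsd17b13, a lipid droplet protein, had 74.3 to 129 CPM (median 84.6) against 138 to 289 (median 200.4) and was kept in 7 of 15, lost without WT replicate 1 or 3 or any sample of CTNNB1_MET or CTNNB1_NFE2L2. Cryl1, L-gulonate dehydrogenase, had 6.11 to 15.4 CPM (median 9.32) against 20.5 to 43.1 (median 28.2) and was kept in all 15.

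**Figure D4:**
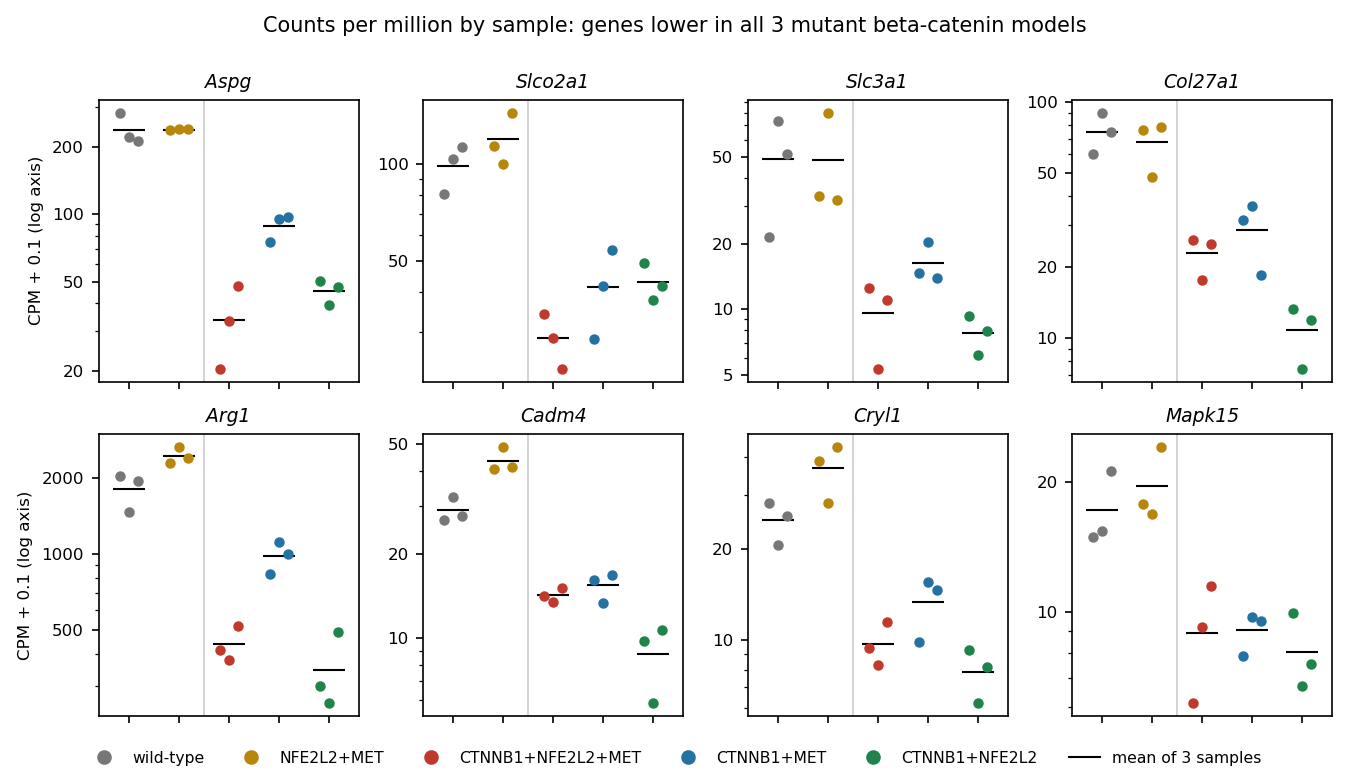
CPM plus 0.1 on a log axis for 8 lower genes in each of the 15 samples, by group, with a black bar at the mean of 3 samples. The models lie below the references in all 8 panels, and CTNNB1_MET lies nearest the references for Aspg and Arg1.

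The remaining lower genes have other roles. Cadm4, a cell adhesion molecule, had 5.75 to 16.8 CPM (median 13.4) against 26.5 to 48.6 (median 36.2). Sox9, the only Wnt target and a marker of ductal and progenitor cells, had 4.17 to 7.73 CPM (median 5.06) against 6.93 to 16.4 (median 13.8). It overlapped and lost membership without WT replicate 2, CTNNB1_NFE2L2 replicate 3 or NFE2L2_MET replicate 3. Celsr1, a planar polarity cadherin, had 1.36 to 5.03 CPM (median 2.12) against 5.82 to 11.3 (median 8.73), and was lost without WT replicate 2, CTNNB1_MET replicate 1 or NFE2L2_MET replicate 2. Cav1, of caveolae, had 4.50 to 9.24 CPM (median 7.02) against 10.5 to 19.9 (median 14.99), and was lost without CTNNB1_MET replicate 1 or 2 or NFE2L2_MET replicate 2 or 3. Mapk15, a kinase of the MAP kinase family, had 6.04 to 11.3 CPM (median 9.09) against 14.8 to 23.9 (median 17.2) and was lost without CTNNB1_MET replicate 1. The noncoding RNA gene 1500017E21Rik had 2.13 to 7.73 CPM (median 4.05) against 8.90 to 17.8 (median 11.9) and was kept in 2 of 15, those without WT replicate 2 or CTNNB1_MET replicate 3. Mug2, a proteinase inhibitor of a multigene family, had 9.87 to 18.8 CPM (median 14.8) against 26.8 to 52.0 (median 33.6). Adamts13, the protease of von Willebrand factor, had means of 16.01 ± 1.08 CPM in WT, 45.9 ± 9.83 in NFE2L2_MET, 9.82 ± 2.41 in CTNNB1_NFE2L2_MET, 7.47 ± 0.489 in CTNNB1_MET and 10.6 ± 0.399 in CTNNB1_NFE2L2 (mean ± SD, n = 3).

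Periportal genes were lower in many contrasts but rarely in all 6. Of 30 tested, 26 were lower in CTNNB1_NFE2L2_MET against WT (as were 23.4% of all tested genes), 24 against NFE2L2_MET (14.3%), 25 in CTNNB1_NFE2L2 against WT (24.2%) and 24 against NFE2L2_MET (18.9%). In CTNNB1_MET only 5 were lower against WT (6.22%) and 6 against NFE2L2_MET (7.36%). These contrasts share samples. Only Arg1, Gldc and Hsd17b13 were members, and in the pooled contrast 25 were lower and 0 higher, with a median of -1.21. Hal and Ftcd missed CTNNB1_MET against NFE2L2_MET, and Aldh1b1 and Hsd17b6 missed CTNNB1_MET against WT. Ass1 and Agxt2l1 were not tested. The lists of NRF2 targets (37), secreted hepatocyte proteins (39), bile acid genes (19), fatty acid oxidation (19), glycolysis (19), acute phase (18), ERK output (15), immediate early and heat shock genes (13), male-biased (20) and female-biased liver genes (14), circadian genes (18), chemokines and checkpoint genes (18) and antigen presentation (17) held 0 members. The same held for markers of T and NK cells (14), macrophages (17), dendritic cells (9), neutrophils (3), endothelium (15), stellate cells (14), erythroid cells (3) and pancreatic acini (2). Of all tested genes only 1.74% were higher and 0.312% lower members, so 0 in lists this short is near that share. Of the 37 NRF2 targets, 27 were lower in CTNNB1_MET than in NFE2L2_MET (as were 7.36% of all tested genes), and 7 were higher in 5 contrasts. In the pooled contrast 17 of 20 male-biased genes were lower and 1 higher (median -1.49). Of 39 secreted proteins 32 were lower and 1 higher (median -0.81), where 21.9% of all tested genes were lower. In CTNNB1_MET 3 male-biased genes were lower against WT and 1 against NFE2L2_MET, where 6.22% and 7.36% of all tested genes were lower. Secreted proteins there had 6 higher and 0 lower against WT, and 3 higher and 5 lower against NFE2L2_MET. Of all 14098 tested genes 1552 and 981 were higher in these contrasts. In the other models 12 to 18 male-biased genes and 29 to 32 secreted proteins were lower in each contrast, as were 14.3 to 24.2% of all tested genes. Liver transcription factors (28 tested) had Tbx3 as their only member, oncofetal markers (23) had Ly6d and Prom1, targets of CAR and PXR (16) had Cyp2c55, and amino acid transporters (26) had Slc1a2, Slc1a5 and Slc3a1.

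The models themselves differed in the size of the signature, which the selection did not use, although the samples are the same. Of the 245 higher genes, 145 were higher and 7 lower in CTNNB1_NFE2L2_MET than in CTNNB1_MET (62.0% differed, against 33.8% of all genes), and 93 did not pass. CTNNB1_MET was lower than CTNNB1_NFE2L2 for 133 and higher for 11 (58.8% against 35.1%). CTNNB1_NFE2L2_MET and CTNNB1_NFE2L2 differed for 69 (41 higher, 28 lower, 28.2% against 25.0%), which is near the share of all genes. For the 44 lower genes the counts were 13 (29.5%) lower in CTNNB1_NFE2L2_MET than in CTNNB1_MET, 18 higher and 1 lower in CTNNB1_MET than in CTNNB1_NFE2L2 (43.2%) and 7 between CTNNB1_NFE2L2_MET and CTNNB1_NFE2L2 (15.9%). The references also differed from each other in the higher genes, with 38 higher and 21 lower in NFE2L2_MET than in WT (24.1% differed, against 23.4% of all genes).

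The model differences were also counted by class. Of 84 cell-cycle members, 80 were higher in CTNNB1_NFE2L2_MET than in CTNNB1_MET (median 1.39) and 72 lower in CTNNB1_MET than in CTNNB1_NFE2L2 (median -1.11, 1 higher), while CTNNB1_NFE2L2_MET and CTNNB1_NFE2L2 differed for 4 (median 0.22). For the 12 Wnt targets the medians were 0.60 (6 higher), -0.50 (7 lower, 1 higher) and 0.18 (3 higher, 2 lower). For the 149 genes in neither class they were 0.32 (59 higher, 7 lower), -0.17 (9 higher, 54 lower) and 0.066 (34 higher, 26 lower). No model difference passed for 50 of the 245 higher genes, of which 48 were in neither class, and for 21 of the 44 lower genes. The highest mean level was in CTNNB1_NFE2L2_MET for 141 higher genes, CTNNB1_NFE2L2 for 79 and CTNNB1_MET for 25. Prom1 was the reverse of most: CTNNB1_MET was above CTNNB1_NFE2L2 by 3.29 ± 0.25 (adjusted p = 1.84e-07). Mogat2 was lower in CTNNB1_MET by 2.94 in the same comparison (adjusted p = 2.99e-07).

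**Figure D5:**
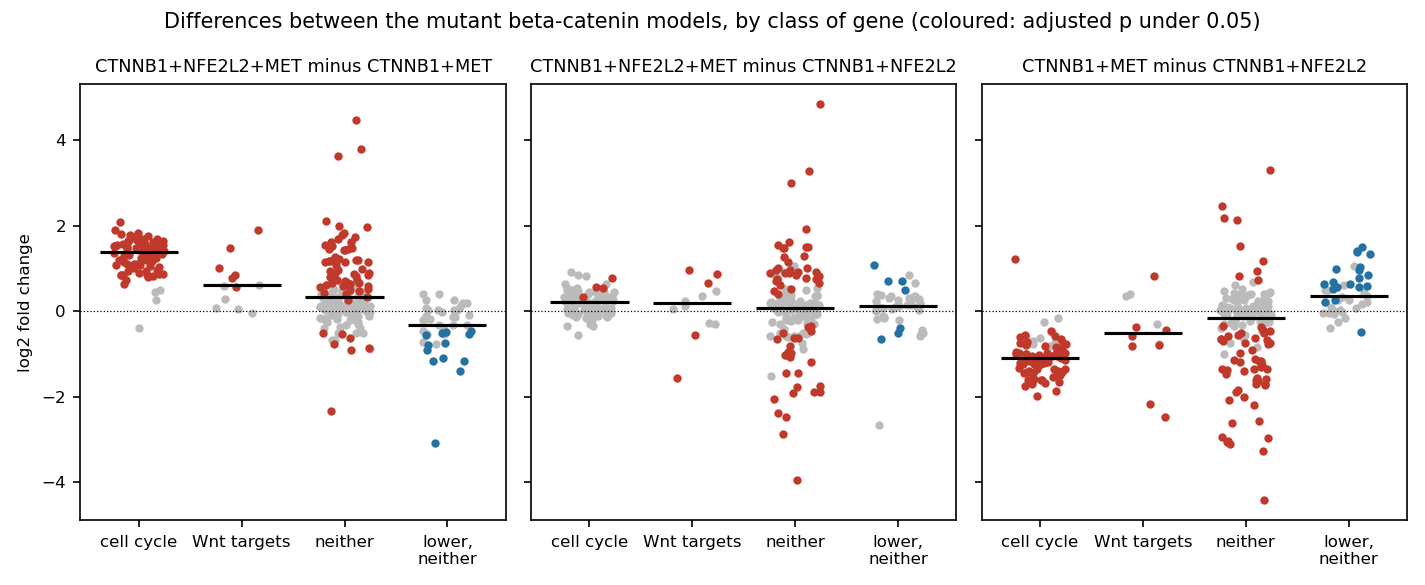
Log2 difference between models (y axis) for the members by class (x axis), with a black bar at the median, in 3 panels for the 3 pairs of models, with genes at an adjusted p below 0.05 coloured. Cell-cycle genes lie mostly above 0 in CTNNB1_NFE2L2_MET minus CTNNB1_MET (median 1.39) and near 0.22 in CTNNB1_NFE2L2_MET minus CTNNB1_NFE2L2.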

How the data were processed

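The deposited files held gene counts that the authors made for each sample, with Trimmomatic, STAR and the build mm10 named in the submitters' processing notes. Tool versions and the annotation release: not given in the sources used here. The unstranded count column of 24411 gene rows was used, without the rows for unmapped, multimapping, ambiguous and no-feature reads. Groups come from the sample labels, and replicate numbers only name samples. Genes with low counts were removed (filterByExpr by group), and 14098 were tested over all 15 samples with the edgeR 4.0.16 quasi-likelihood test in R 4.3.3 (TMM, robust, 1 coefficient per group), with Benjamini-Hochberg adjustment over all genes. Total counts limit the precision of genes with few reads. The test step was tested on simulated data. Genes were named by a rule: the 15 higher and 15 lower genes outside the Wnt and cell-cycle lists with the largest minimum difference and at least 5 CPM in each group of the higher side, the gained and lost genes, up to 6 members per list, and the introduced genes. Some genes under the rule are not reported here. Members and lists were chosen with earlier results of these data known. Alternatives were RLE and total-count scaling, no count filter, DESeq2 1.42.0, only the 6 samples of a contrast, a term for or removal of 3 samples marked as added, stricter thresholds and leaving out each sample.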

Additional observations from a re-analysis of the deposited data

Results flagged for a closer look

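The models differed from each other by an edgeR test of the difference itself in part of the signature. Between CTNNB1_NFE2L2_MET and CTNNB1_MET, 152 higher and 13 lower members differed (62% and 29.5%, against 33.8% of all tested genes). Between CTNNB1_NFE2L2_MET and CTNNB1_NFE2L2 the numbers were 69 and 7 (28.2% and 15.9%, against 25.0%). Between CTNNB1_MET and CTNNB1_NFE2L2 they were 144 and 19 (58.8% and 43.2%, against 35.1%). Prom1 was higher in CTNNB1_MET than in CTNNB1_NFE2L2 by 3.29 on the log2 scale.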

How the results depend on the processing

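The higher count was 245 and the lower 44. No named gene changed sign under any setting run. Under total-count scaling there were 296 higher and 21 lower genes, and 2 of the 44 (Gxylt1 and Vps13b) changed sign in a contrast. With that scaling the median log2 difference of all genes in CTNNB1_NFE2L2_MET minus NFE2L2_MET was 0.375, against 0.0112 with TMM. At an adjusted p of 0.01 the counts were 137 higher and 15 lower, and at 2-fold in each contrast 158 and 10. Leaving out 1 sample gave 186 to 241 higher and 21 to 49 lower. The other settings gave 196 to 256 higher and 34 to 61 lower genes. They kept 179 to 243 of the 245 higher members and 25 to 43 of the 44 lower members. The fewest were kept without the 3 added samples, which were replicate 3 of WT, CTNNB1_NFE2L2_MET and CTNNB1_MET. With only the 6 samples of a contrast, 187 and 27 were kept. Of the 58 members under the naming rule, leaving out 1 sample kept 49 to 56. In all 24 settings, 100 of the 245 and 3 of the 44 (Aspg, Platr4, Slco2a1) were kept. Stricter thresholds keep fewer genes by construction, and for total-count scaling the cause was not tested. No paired analysis was possible because the sample labels carry no numbering shared between groups. Genes with few reads in the references, such as Mir670, are limited by depth.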
